A study of Mus musculus with 9 samples.

Results

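Dividing neutrophil precursors are the marrow cells that have begun to make neutrophil granule proteins while they still pass through the cell cycle. They were selected from single cell RNA data of mouse marrow. The libraries came from the femurs of 9 untreated female mice of 9 to 10 weeks, 3 each of the inbred New Zealand Black (NZB) strain, the inbred New Zealand White (NZW) strain, and their first generation hybrid NZBWF1, which is used as a model of systemic lupus erythematosus. No group carried a transgene, all mice were bought from The Jackson Laboratory and arrived together, and each library was made from 1 mouse. Of 68444 called barcodes, 39051 had at least 1000 unique molecular identifiers (UMIs, each counting 1 captured RNA molecule), at least 500 genes, and at most 10% mitochondrial UMIs. A kept barcode was a member when *Camp* and *Ngp* together made up at least 1% of its UMIs, *Mki67* and *Top2a* together had at least 2 UMIs, and *Cd79a* and *Csf1r* had 0 UMIs. The rule found 3631 members, which is 9.30% of the kept barcodes, and 13133 barcodes met its conditions when division was left out. The 6 genes of the rule are given as description only.

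As background, neutrophils mature in the marrow from promyelocytes, which make primary (azurophil) granule enzymes such as myeloperoxidase and neutrophil elastase. At the next stage, the myelocyte, these genes are shut down, specific granule proteins such as lactoferrin and lipocalin 2 are made under the transcription factor C/EBP-epsilon, and the last cell divisions take place. Later, non-dividing cells load gelatinase granules and acquire the receptors of a circulating neutrophil.

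The label was checked against genes that the rule did not use. *Lcn2* (lipocalin 2, which binds bacterial siderophores) was detected in 98.3% of members, *Ltf* (lactoferrin) in 95.04%, *Cebpe* (C/EBP-epsilon) in 94.2%, and *Fcnb* (ficolin B, a lectin of early neutrophil granules) in 69.1%. In 2718 dividing cells with at least 2 *Cd79a* UMIs, B-lineage cells that should lack these genes, the shares were 14.3%, 9.46%, 5.30%, and 2.91%. Median depths were 3875 UMIs in members and 3251.5 UMIs in those B-lineage cells. At these depths each of the 4 genes was found in most members and in few of the B-lineage cells. With cells thinned at random to fewer UMIs, *Fcnb* was found in 36.2% and 1.40%. Of the other planned markers, *Ly6g* was found in 67.9% and 6.11%, but *Csf3r* in only 18.5% of members and 3.68% of the B-lineage cells. *S100a8* and *S100a9* were found in 100% of members, but also in 51.2% and 64.5% of the B-lineage cells. The primary granule genes *Elane* (neutrophil elastase) and *Mpo* (myeloperoxidase) were seen in 25.2% and 16.8% of members, against 3.24% and 3.35% of the B-lineage cells.

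Markers of other lineages were then summed. Levels are given as CPM, that is the summed UMIs of a gene over the cells of a mouse, divided by all UMIs of those cells and multiplied by 1000000. The 9 B-cell markers summed to 8.73 to 14.3 in NZB, 38.5 to 105 in NZW, and 39.2 to 102 in NZBWF1, with *Cd79a* at 0 by the rule. The 7 monocyte markers summed to 49.5 to 205, with *Csf1r* at 0 by the rule. The 10 erythroid markers summed to 29.7 to 2596, with the highest sum in NZW replicate 3, 29.7 in NZBWF1 replicate 1, at least 396 in the other 8 mice, and none of them at 0. The same sum was 64.9 to 242 in non-dividing cells of this lineage and 26.3 to 458 in dividing promyelocyte-like cells, both defined below. *Hbb-bs* (beta globin) was higher in members than in non-dividing cells in 8 of 9 mice. With members holding at least 2 erythroid UMIs left out, 614 genes were called between NZB and NZW, against 519 with them. The 6 T and NK cell markers reached at most 44.6 with *Cd5* at 0, the 7 eosinophil, basophil, and mast cell markers at most 83.4 with *Il5ra* at 0, the 6 stem cell markers at most 37.8, and the 5 markers of dendritic, plasma, and megakaryocytic cells at most 151. A doublet score marked 271 members (7.46%) against 3.73% of all kept barcodes, and 226 members (6.22%) held at least 2 erythroid UMIs. Among the kept barcodes, 170 barcode sequences occurred in more than 1 library. Of the members, 34 had a sequence that was also kept in another library, and 0 sequences were a member in more than 1 library.

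The members varied widely among themselves. *Camp* and *Ngp* made up 1.01% to 20.6% of a member's UMIs, with a median of 11.7%. In the 278 members between 1% and 5%, the sum of *Mpo*, *Elane*, *Prtn3*, and *Ctsg* was 13766 CPM, *Ltf* was 2470, and ribosomal protein genes were 218698, the erythroid markers were 6675, and 42.1% of these members were marked as doublets. In the 2406 members between 10% and 15%, the same quantities were 1587, 8308, 66269, and 61.5 CPM, and 1.21% were marked as doublets. Members just inside the limit of 1% (18 cells up to 1.2%) had 15491 CPM of the primary granule sum, and barcodes just outside it (24 cells down to 0.8%) had 18848. Across the division limit, the 777 members with exactly 2 *Mki67* and *Top2a* UMIs had an *Ltf* level of 7057 CPM, and the 1071 barcodes with 1 such UMI had 7240.

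Members were set beside the stages before and after them as a description. Dividing promyelocyte-like cells (822 barcodes) had at least 1% of UMIs from *Mpo*, *Elane*, *Prtn3*, and *Ctsg* and under 1% from *Camp* and *Ngp*, and otherwise followed the rule. Non-dividing cells (8431 barcodes) met the rule with 0 *Mki67* and *Top2a* UMIs. *Mpo*, one of the genes that selected the promyelocyte-like cells, had a mean of 7063 ± 889 CPM (SD, n = 9 mice) there, partly through that selection. It fell to 478 ± 162 in members and 278 ± 99.9 in non-dividing cells. *Ltf* went the other way, with 11.9 ± 9.17, 7341 ± 770, and 12206 ± 1353. *Fcnb* was highest in members, with 47.0 ± 20.3, 519 ± 72.0, and 191 ± 80.5, and was higher in members than in either other stage in 9 of 9 mice. *Ly6g* (the Gr-1 surface antigen of neutrophils) had 7.15 ± 5.76, 582 ± 179, and 2047 ± 605.

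Genes of the next stage were present at low levels in members. *Mmp9* (gelatinase B) had 161 ± 41.9 CPM in members and 1286 ± 382 in non-dividing cells, and *Retnlg* (a resistin-like protein of mature neutrophils) had 688 ± 203 and 6752 ± 2368. Cell cycle genes outside the rule were higher in members than in non-dividing cells, in the mean of the mice, for all 32 S phase and all 40 G2 and M phase genes. Against promyelocyte-like cells the lists went opposite ways, with 37 of 40 G2 and M phase genes higher in members and 27 of 32 S phase genes lower. *Ube2c* (a mitotic ubiquitin-conjugating enzyme) had 812 ± 59.4 CPM in members, 481 ± 70.7 in promyelocyte-like cells, and 36.4 ± 23.5 in non-dividing cells. *Rrm2* (a subunit of ribonucleotide reductase) had 280 ± 16.9, 207 ± 30.0, and 25.6 ± 11.3, and *Hmgb2* (a chromatin protein of dividing cells) had 3827 ± 307, 1601 ± 128, and 1648 ± 154. *Mcm3* (a subunit of the replicative helicase) had 58.4 ± 11.6, 165 ± 17.1, and 15.2 ± 7.14, and *Dut* (which removes dUTP from the nucleotide pool) had 233 ± 21.7, 510.1 ± 67.3, and 37.8 ± 13.3, in the same order of stages, and each was lower in members than in promyelocyte-like cells in 9 of 9 mice. The S phase list summed to 1889 to 2366 CPM in members and 3001 to 3675 in promyelocyte-like cells. A set of 10 neutrophil genes, among them *Ngp*, *Lcn2*, and *S100a9*, held 375330 to 408120 CPM in members. In promyelocyte-like cells it held 1139 to 6848 CPM, so fewer of the UMIs in members were left for other genes. The part of this in the counts above was not tested, and no share over all genes was computed. Since the stages were divided by *Mki67* and *Top2a*, and the promyelocyte-like cells also by primary granule genes, no test of the stages was made.

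**Figure D1:**
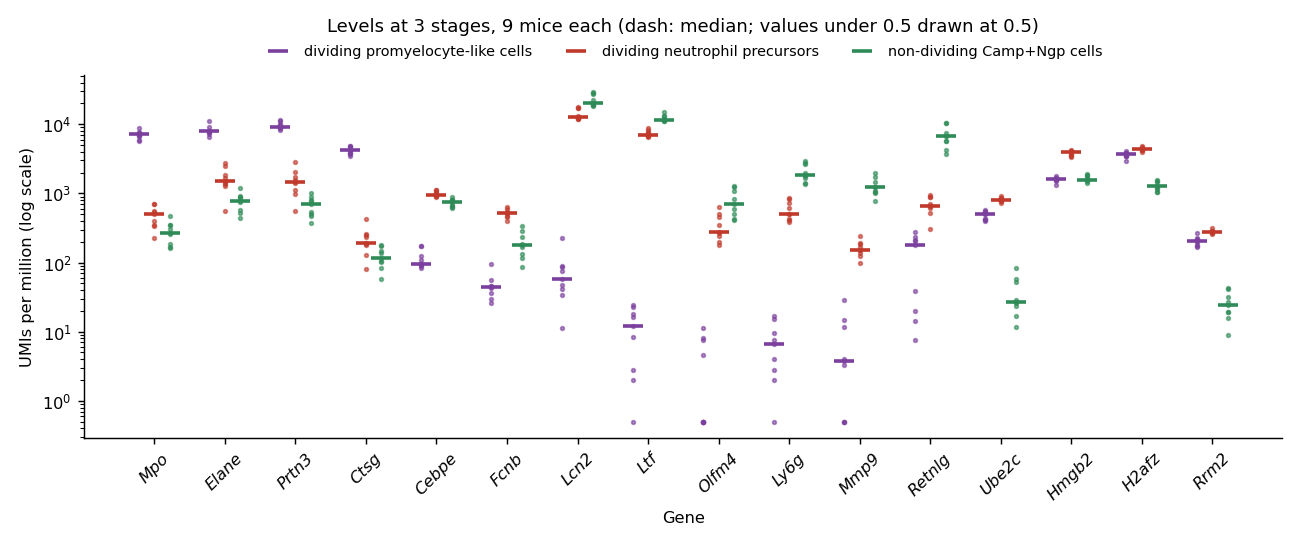
Levels of 16 genes in CPM (log axis) at 3 stages, with 1 point per mouse and a dash at the median of the 9 mice. The primary granule genes shown (*Mpo*, *Elane*, *Prtn3*, and *Ctsg*) selected the dividing promyelocyte-like cells and are highest there. *Cebpe* and *Fcnb* are highest in dividing neutrophil precursors, and *Ltf*, *Lcn2*, *Ly6g*, *Mmp9*, and *Retnlg* in non-dividing cells.

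The first question of the design was whether the strains differed in the number of these cells. Of the kept barcodes of NZB, 7.25%, 13.9%, and 11.6% were members, against 7.73%, 9.90%, and 9.03% for NZW and 6.63%, 8.79%, and 7.35% for NZBWF1. The strains overlapped, and replicate 1 was the lowest of each strain. The means were 10.9% ± 3.36, 8.89% ± 1.09, and 7.59% ± 1.10 (SD, n = 3), and an exact permutation test over the 3 strains gave p = 0.225, which was 0.450 after adjustment over the 4 share measures. Without NZB replicate 1 the adjusted p was 0.0143, and the smallest unadjusted p that this design allows is 0.00357.

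As a share of all cells that met the *Camp* and *Ngp* conditions, members were 18.7%, 35.5%, and 26.6% in NZB, 22.2%, 34.1%, and 26.4% in NZW, and 19.98%, 28.9%, and 27.2% in NZBWF1. Replicate 1 was lowest and replicate 2 highest in each strain, and the strains overlapped over nearly their whole range. The means were 26.9% ± 8.37, 27.6% ± 6.07, and 25.4% ± 4.75 (exact permutation p = 0.914). Members of replicate 1 had the most UMIs in each strain (medians 5529.5, 4978, and 5227.5) and members of replicate 2 the fewest in NZB and NZW (3416 and 3387), with 3707 in NZBWF1, also the lowest of that strain. With every cell thinned to 1000 UMIs the shares averaged 8.39%, 8.88%, and 8.12%. Among cells of at least 2000 UMIs and 1000 genes they averaged 72.4%, 70.8%, and 67.1% in NZB, NZW, and NZBWF1. The exact permutation test there gave p = 0.0179, which was 0.0714 after adjustment. The level of this share thus varied widely with the depth of the cells.

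Within the members, the share of cells with primary granule RNA was measured after thinning each cell to 1000 UMIs, as cells with at least 2 UMIs of *Mpo*, *Elane*, *Prtn3*, and *Ctsg*. It was 23.0%, 27.4%, and 20.3% in NZB, 17.4%, 15.1%, and 11.6% in NZW, and 18.8%, 18.2%, and 18.7% in NZBWF1. Every NZB mouse was above every NZBWF1 mouse, and every NZBWF1 mouse was above every NZW mouse. The means were 23.6% ± 3.599, 14.7% ± 2.91, and 18.6% ± 0.302 (exact permutation p = 0.00357, the smallest possible, and 0.0143 after adjustment). The call did not hold without thinning (adjusted p = 0.257), at 2000 UMIs per cell (0.371), or among cells of at least 2000 UMIs and 1000 genes (0.114). It was also lost with marked doublets left out (0.0571), or without NZB replicate 2 (0.0571), NZW replicate 2 (0.0571), NZW replicate 3 (0.157), or any 1 of the NZBWF1 mice (0.0714 each). With strains permuted within replicate numbers, the exact permutation p was 0.0278, the smallest that this test allows. After adjustment it was 0.111, so given the p values of the other shares that test could not give a call. The share with at least 1 *Ltf* UMI averaged 91.2% ± 1.98, 92.7% ± 2.26, and 92.1% ± 1.61 (exact permutation p = 0.661).

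**Figure D2:**
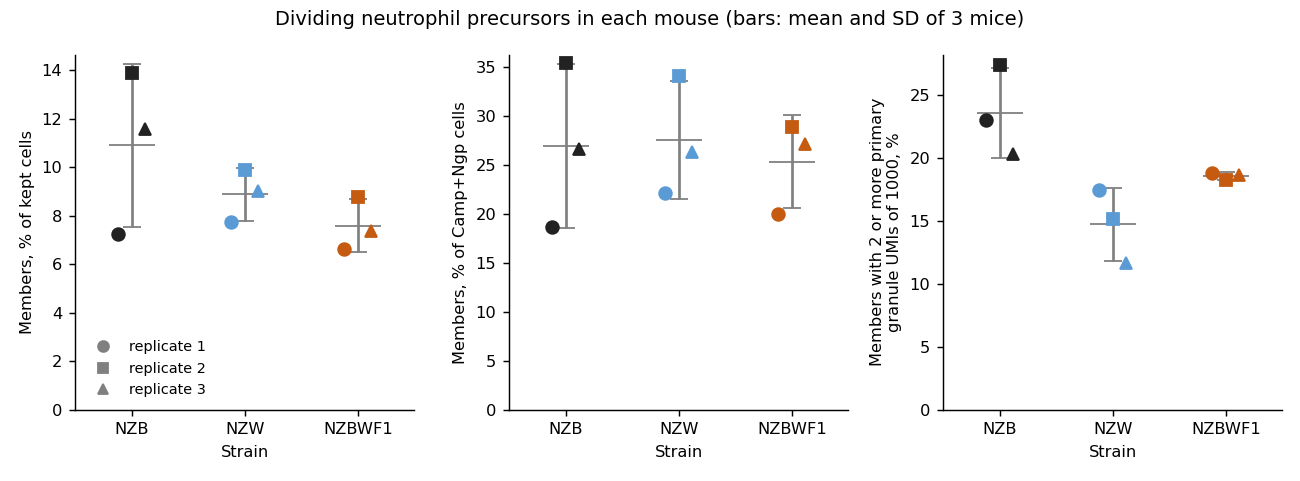
Share of dividing neutrophil precursors among kept cells (left) and among cells meeting the *Camp* and *Ngp* conditions (middle), and share of members with at least 2 primary granule UMIs of 1000 (right), in percent for each mouse, with bars for the mean and SD of 3 mice. The strains overlap in the left and middle panels, and in the right panel NZB lies at 20.3% to 27.4%, NZBWF1 at 18.2% to 18.8%, and NZW at 11.6% to 17.4%.

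Expression was compared between strains on the summed counts of members, with 942951 to 2549886 UMIs per mouse, by edgeR's quasi-likelihood test over 7657 genes. A gene was called at a Benjamini-Hochberg adjusted p below 0.05, log2 fold changes are from that fit with their standard error, and levels per mouse are plain CPM. Between NZB and NZW, 519 genes (6.78% of those tested) were called, 282 (3.68%) higher in NZB and 237 (3.1%) lower, and the median over all genes was -0.01. Free RNA was estimated at 5.53% to 9.46% of member UMIs in NZB, 9.53% to 16.9% in NZW, and 0.298% to 23.0% in NZBWF1, and 292 genes were called after its subtraction. The estimate took all globin of members as free RNA. Members with 1% to 5% *Camp* and *Ngp*, often marked as doublets, held 6675 CPM of erythroid markers, against 61.5 between 10% and 15%. Any globin of mixed barcodes was therefore counted as free RNA too. With cells thinned at random to fewer UMIs, *Hbb-bs* was found in 4.68% of members, 4.93% of the B-lineage cells, and 5.09% of non-dividing cells. Whether the subtraction was too large or too small was not tested. Leaving out NZB replicate 2 gave 315 calls. The comparisons share mice, so each is given on its own. The mice of NZB and NZW did not overlap in CPM for 1641 of the 7657 genes tested and for 504 of the 519 called. Genes named for small p values, among them *Itgb2l*, *Cdkn2c*, *Siglece*, and *Cd3d*, were chosen partly for such a gap. Their lack of overlap is therefore description. *Ngp*, which the rule used, had 47070, 46390, and 53410 CPM in members of NZB and 34740, 35180, and 34380 in those of NZW.

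Protein folding genes of the endoplasmic reticulum were mostly higher in NZB. These are chaperones, disulfide isomerases, and translocation factors of the secretory pathway, many of them induced by the unfolded protein response through the endoplasmic reticulum stress response element (ERSE). Of 18 tested, 11 were higher in NZB than in NZW, 0 were lower, 17 had a positive log2 fold change, and the median was 0.66. The background for higher calls was 3.68% of all genes tested. This list and those below were chosen with earlier results of these data known. Their counts against the background are therefore description.

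*Hspa5* (BiP, the main chaperone of the compartment) had 149, 179, and 138 CPM in NZB, 104, 99.2, and 98.3 in NZW, and 127, 129, and 130 in NZBWF1. All NZB mice were above all NZBWF1 mice, which were above all NZW mice. The difference between NZB and NZW was 0.69 ± 0.12 on the log2 scale (adjusted p = 0.000148). *Hsp90b1* (GRP94, a chaperone of secreted and membrane proteins) had 253, 331, and 297 in NZB, 172, 179, and 153 in NZW, and 255, 203, and 223 in NZBWF1, and was higher in NZB by 0.86 ± 0.12 (adjusted p = 3.05e-06). NZB and NZW did not overlap, and NZBWF1 replicate 1 lay just above the lowest NZB mouse.

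*Manf* (a secreted stress factor of the compartment) was higher by 0.67 ± 0.12, *Pdia6* (a disulfide isomerase) by 0.94 ± 0.19, *Calr* (calreticulin, a lectin chaperone) by 0.98 ± 0.22, and *Sdf2l1* (a BiP cofactor) by 1.39 ± 0.30. Calls were also made for *Creld2*, *Dnajc3*, *Ssr1*, *Pdia3*, and *P4hb*, while *Atf4*, a transcription factor of the stress response, had the only negative value, -0.17. The whole list summed to 1994 ± 233 CPM in NZB, 1389 ± 86.7 in NZW, and 1724 ± 88.9 in NZBWF1. In dividing promyelocyte-like cells it summed to 6111 to 11177 CPM over the 9 mice. The share of members with primary granule UMIs was also higher in NZB than in NZW (23.6% against 14.7%), and its part in the result was not tested. Single calls lost under the most alternatives, of 20, were *P4hb* (14), *Creld2* (8), *Dnajc3* (7), *Calr* (6), and *Sdf2l1* (6), while *Pdia3* was lost under 3 and *Pdia6* under 1. The number of higher calls was 7 without NZB replicate 2, 7 without NZW replicate 2, 5 without NZW replicate 3, and 5 after subtraction of free RNA.

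Some promoters of this list carry a shared element, and 4 of these are shown for it. The 250 bases before the RefSeq gene start (build GRCm38.p6) were searched on both strands for the ERSE, written as CCAAT, any 9 bases, and CCACG, so that every match also holds a CCAAT box. It was present in 7 of 16 matched genes of the list (43.8%: *Calr*, *Canx*, *Creld2*, *Dnajc3*, *Hsp90b1*, *Hspa5*, and *Pdia6*) and in 37 of all 32817 promoter windows (0.113%). The list was put together from known stress response genes, so the share describes the list and does not bear on the strain difference. Capitals mark the match, read 5′ to 3′ on the strand of the gene, and a match on the other strand starts with CGTGG.
*Hspa5*, chr2:34771840-34772089, plus strand: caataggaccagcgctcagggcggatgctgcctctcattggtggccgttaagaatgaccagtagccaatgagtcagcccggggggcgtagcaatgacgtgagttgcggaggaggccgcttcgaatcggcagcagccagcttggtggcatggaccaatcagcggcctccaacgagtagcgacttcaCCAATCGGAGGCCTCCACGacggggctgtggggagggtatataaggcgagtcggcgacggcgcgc
*Hsp90b1*, chr10:86705445-86705694, minus strand: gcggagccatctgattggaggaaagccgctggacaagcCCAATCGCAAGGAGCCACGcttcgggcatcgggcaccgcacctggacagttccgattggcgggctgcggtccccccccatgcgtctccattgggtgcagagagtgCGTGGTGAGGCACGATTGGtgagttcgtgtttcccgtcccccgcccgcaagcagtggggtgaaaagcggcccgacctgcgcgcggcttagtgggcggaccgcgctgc
*Pdia6*, chr12:17266339-17266588, plus strand: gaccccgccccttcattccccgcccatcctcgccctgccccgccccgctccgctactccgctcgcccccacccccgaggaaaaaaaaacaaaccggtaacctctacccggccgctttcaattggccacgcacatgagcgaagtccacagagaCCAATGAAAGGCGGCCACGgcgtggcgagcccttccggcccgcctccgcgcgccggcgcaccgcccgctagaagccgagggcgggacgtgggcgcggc
*Calr*, chr8:84846932-84847181, minus strand: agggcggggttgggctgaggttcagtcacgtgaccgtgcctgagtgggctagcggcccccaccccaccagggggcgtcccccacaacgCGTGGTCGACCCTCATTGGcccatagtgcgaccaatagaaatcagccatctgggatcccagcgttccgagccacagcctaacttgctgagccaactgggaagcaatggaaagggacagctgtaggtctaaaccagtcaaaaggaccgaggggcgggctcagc

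**Figure D3:**
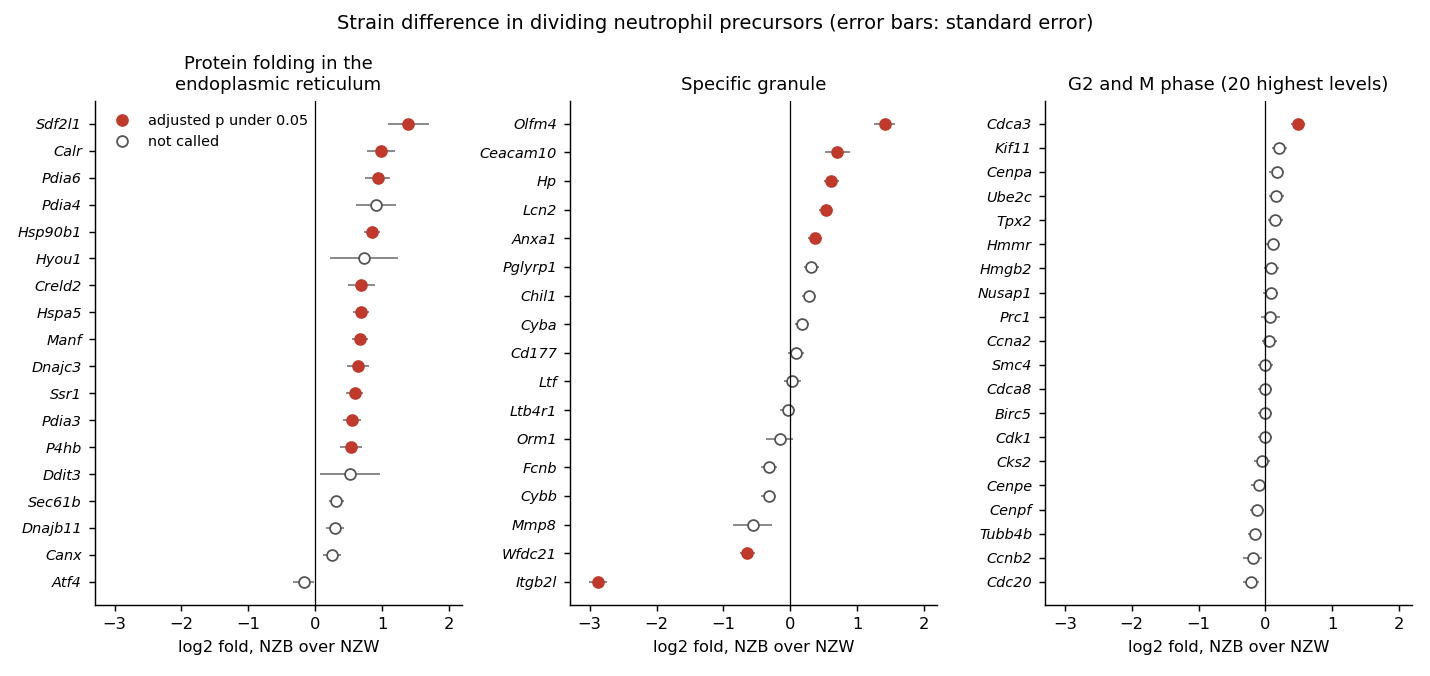
Log2 fold change of NZB over NZW with its approximate standard error for the genes of 3 lists in dividing neutrophil precursors, with filled points for adjusted p under 0.05. In the endoplasmic reticulum list 11 of 18 genes are called and all of these lie above 0, the specific granule list is called in both directions, and among the 20 G2 and M phase genes of highest level only *Cdca3* is called.

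Specific granule genes differed in both directions. Of 17 tested, 5 were higher in NZB than in NZW (*Olfm4*, *Ceacam10*, *Hp*, *Lcn2*, and *Anxa1*), 2 were lower (*Itgb2l* and *Wfdc21*), against 3.68% higher and 3.1% lower of all genes, and the median was 0.08. After subtraction of free RNA 1 was higher and 3 were lower, and 3 were higher without NZB replicate 2 or without NZW replicate 3. *Ltf* itself was not called, with a log2 fold change of 0.03.

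*Itgb2l* (an integrin beta chain of neutrophils that resembles *Itgb2*, chr16:96422288-96443619) had 30.1, 30.2, and 37.4 CPM in NZB, 246, 243, and 248 in NZW, and 171, 124, and 134 in NZBWF1. No 2 strains overlapped, with the hybrid between its parents. NZB was 7.34-fold lower than NZW (log2 -2.88 ± 0.14, adjusted p = 2.67e-17), and NZBWF1 was above NZB by 2.0 ± 0.14 on that scale (adjusted p = 4.12e-12) and below NZW by -0.88 ± 0.12 (adjusted p = 6.74e-06).

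*Olfm4* (olfactomedin 4, which marks a subset of neutrophils) had 640, 458, and 498 in NZB, 199, 239, and 179 in NZW, and 351, 269, and 276 in NZBWF1, again without overlap. It was higher in NZB than in NZW by 1.41 ± 0.16 (adjusted p = 3.40e-06) and lower in NZBWF1 than in NZB by -0.96 ± 0.15. *Lcn2* had 16957, 17264, and 18026 in NZB, 12972, 12046, and 12293 in NZW, and 12320, 11974, and 12695 in NZBWF1, so that the hybrid overlapped NZW and lay below NZB. It was higher in NZB than in NZW by 0.53 ± 0.10 (adjusted p = 0.000507), a call lost after subtraction of free RNA (adjusted p = 0.0951). *Hp* (haptoglobin, which binds free haemoglobin) was higher in NZB by 0.62 ± 0.11, also lost after that subtraction (adjusted p = 0.0617), the calls of *Ceacam10* and *Anxa1* were each lost under 6 of 20 alternatives, and *Wfdc21* (a small whey acidic protein) lower by -0.64 ± 0.11.

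Promoters of 2 specific granule genes are shown with the C/EBP half-site pair searched as TTGCNNAA on both strands. It was found in 5 of 15 matched genes of the list (33.3%: *Anxa1*, *Fcnb*, *Lcn2*, *Ltf*, and *Mmp8*), in 0 of 10 primary granule genes, and in 9.57% of all promoter windows. A gene counted if any of its windows matched, whereas the last share counts single windows. No test was made, and these shares do not bear on the strain difference. Capitals mark the match, and a match on the other strand reads TTNNGCAA, as in *Ltf*. The same 250 bases and build were used.
*Ltf*, chr9:111019042-111019291, plus strand: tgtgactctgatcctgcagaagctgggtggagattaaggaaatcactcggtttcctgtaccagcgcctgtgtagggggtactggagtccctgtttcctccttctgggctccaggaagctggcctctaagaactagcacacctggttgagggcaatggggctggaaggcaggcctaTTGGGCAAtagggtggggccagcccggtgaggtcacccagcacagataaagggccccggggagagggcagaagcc
*Lcn2*, chr2:32387740-32387989, minus strand: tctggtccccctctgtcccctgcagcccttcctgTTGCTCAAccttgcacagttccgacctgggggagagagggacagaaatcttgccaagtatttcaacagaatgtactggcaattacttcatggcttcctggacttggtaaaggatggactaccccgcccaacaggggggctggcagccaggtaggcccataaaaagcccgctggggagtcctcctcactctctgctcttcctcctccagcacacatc

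Primary granule genes had a positive log2 fold change of NZB over NZW in all 12 tested, with a median of 0.99, but only *Ctsc* (cathepsin C, which activates granule serine proteases) was called, at 1.25 ± 0.34 (adjusted p = 0.0334), a call lost under 11 of 19 alternatives. *Prtn3* (proteinase 3) had 2030, 2882, and 1454 CPM in NZB, 1112, 980.1, and 559 in NZW, and 1706, 1549, and 1404 in NZBWF1. NZB and NZW did not overlap, and the difference of 1.31 ± 0.37 missed the threshold (adjusted p = 0.111). Over the alternatives 0 to 6 genes of this list were called, and 0 without NZB replicate 2 or NZW replicate 2.

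Of 22 genes of later neutrophil stages, 4 were higher in NZB and 0 lower, with a median of 0.45, against 3.68% higher and 3.1% lower of all genes. *Cxcr2* (the chemokine receptor that draws neutrophils into the blood) had 46.6, 58.8, and 59.9 in NZB, 27.0, 27.8, and 26.8 in NZW, and 54.1, 45.4, and 50.4 in NZBWF1. Hybrid mice overlapped NZB and lay above NZW, by 0.79 ± 0.16 (adjusted p = 0.00394), and NZB was above NZW by 1.08 ± 0.15 (adjusted p = 4.88e-06). *Il1r2* (the decoy receptor for interleukin 1) was 8.20-fold higher in NZB than in NZW at low levels (23.9 ± 9.57 and 3.01 ± 0.384 CPM). *Lrg1* and *S100a11* were called at 0.49 ± 0.12 and 0.41 ± 0.11, calls lost under 3 and 7 of 20 alternatives. The count fell to 2 without NZB replicate 2 or NZW replicate 2. *S100a9*, the most abundant gene of the list, had -0.01 ± 0.10.

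Between NZB and NZW, 1 of 32 S phase genes and 1 of 40 G2 and M phase genes were called, with medians of 0.09 and 0.05. Of all genes tested, 6.78% were called in either direction, so these counts are near the background. The called genes were *Pcna* (the DNA polymerase clamp) and *Cdca3* (a mitotic entry factor, 0.49 ± 0.11, adjusted p = 0.00327, a call lost without NZW replicate 2 and after subtraction of free RNA). *Pcna* had 56.3, 42.4, and 61.7 in NZB, 14.4, 21.3, and 23.99 in NZW, and 36.1, 43.8, and 40.2 in NZBWF1. NZB and NZW did not overlap, and NZB was 2.69-fold higher (1.43 ± 0.19, adjusted p = 8.50e-07). For NZBWF1 the median of the G2 and M phase list was -0.25 against NZB and -0.21 against NZW. The log2 fold change was positive in 3 and 2 of its 40 genes, against 3977 and 3860 of all 7657 genes. The list summed to 9944 to 10612 CPM in the NZBWF1 mice and 10678 to 11727 in the other 6, without overlap. Members were chosen by *Mki67* and *Top2a* UMIs, and UMIs per member differed between mice. The part of either in these values was not tested. Against NZB 1 gene was called (*Hmmr*, -0.42 ± 0.12) and against NZW 0 of 40, where 2.53% and 0.966% of all genes were called, and the *Hmmr* call was lost under 11 of 20 alternatives.

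Among cyclins and brakes of the cell cycle, *Cdkn2c* (p18, an inhibitor of CDK4 and CDK6, chr4:109660876-109667189) stood apart. It had 13.6, 23.1, and 23.7 CPM in NZB, 91.9, 92.7, and 94.3 in NZW, and 61.5, 56.9, and 49.4 in NZBWF1. No 2 strains overlapped and the hybrid was between them. NZB was 4.26-fold lower than NZW (-2.09 ± 0.15, adjusted p = 3.69e-12), and NZBWF1 differed from NZB by 1.27 ± 0.17 and from NZW by -0.82 ± 0.13 (adjusted p = 7.24e-06 and 0.000176). Of 18 genes tested, *Cdkn1a* (p21, 1.08 ± 0.29) and *Rb1* (the retinoblastoma protein, 0.54 ± 0.16) were higher in NZB. Their calls were lost under 7 and 8 of 20 alternatives, each in 4 of the 9 fits that left out 1 mouse, with adjusted p up to 0.361 and 0.244. *Cdkn2d* (p19, the most abundant of the list) was not called at 0.14 ± 0.11. *Cdk6*, the partner of cyclin D that p18 inhibits, was higher in NZBWF1 than in NZB by 0.68 ± 0.16 (adjusted p = 0.0144), a call lost under 4 of 20 alternatives (adjusted p up to 0.0989), among them without NZB replicate 1 and without NZBWF1 replicate 2.

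Histone genes were called in both directions, 2 higher and 6 lower in NZB than in NZW of 18 tested, with a median of -0.18, against 3.68% higher and 3.1% lower of all genes. *Hist1h4i*, which the study also named, had 3.88, 0.784, and 1.25 in NZB, 44.2, 47.4, and 42.3 in NZW, and 26.5, 23.7, and 24.2 in NZBWF1, without overlap. *Hist2h2ac* went the other way (21.0 ± 1.88 and 3.04 ± 1.78 CPM). Copies of replication-dependent histone genes are nearly identical in sequence and were captured through poly(A) tails that most of their transcripts lack, so the split of reads among them is uncertain. *Hist1h4i* and *Hist1h4d* together had 8.98 ± 4.06 CPM in NZB, 82.4 ± 8.30 in NZW, and 38.1 ± 5.66 in NZBWF1. With at least 10 counts required in every mouse, 1 was higher and 1 lower.

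**Figure D4:**
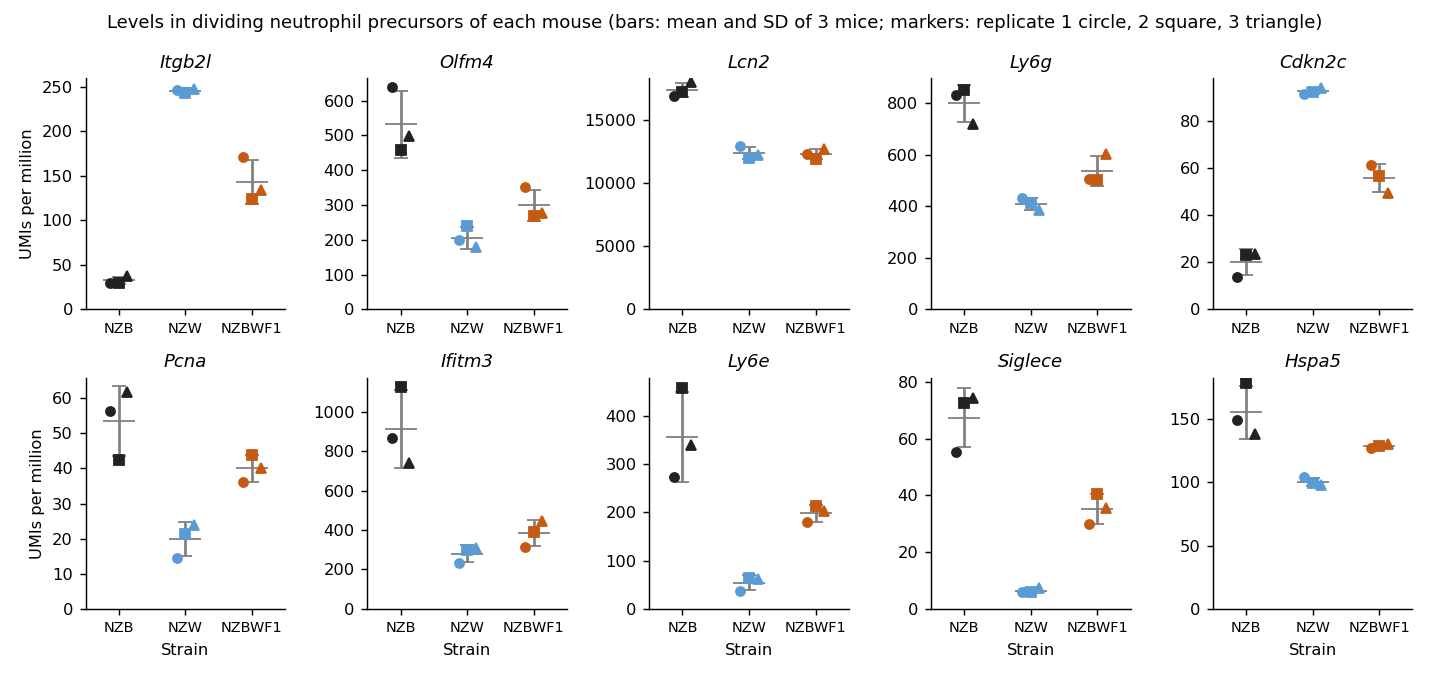
Levels of 10 genes in CPM in dividing neutrophil precursors of each mouse, with bars for the mean and SD of 3 mice. *Itgb2l* and *Cdkn2c* are lowest in NZB, the other 8 genes are highest in NZB, and NZBWF1 lies between the parents in all but *Lcn2*.

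Of 40 interferon-stimulated genes tested, 9 were higher in NZB than in NZW and 1 was lower, with a median of 0.27, against 3.68% higher and 3.1% lower of all genes. *Ifitm3* (a membrane protein that blocks virus entry) had 866, 1130, and 740 in NZB, 234, 298, and 311 in NZW, and 313, 393, and 445 in NZBWF1. No 2 strains overlapped, although the lowest hybrid mouse was close to the highest NZW mouse. NZB was above NZW by 1.76 ± 0.17 (adjusted p = 1.98e-06) and NZBWF1 below NZB by -1.37 ± 0.17 (adjusted p = 0.000101). *Ly6e* (a lipid-anchored surface protein) had 274, 459, and 340 in NZB, 36.2, 63.2, and 62.3 in NZW, and 179, 214, and 203 in NZBWF1, again with the hybrid between parents that did not overlap it, and NZB was 6.90-fold higher than NZW.

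*Ifitm6* (0.80 ± 0.12), *Apobec3* (a restriction factor of retroviruses, 1.85 ± 0.21), *Plscr1*, *Slfn1*, *Gbp7*, *Psmb8*, and *Ifi202b* were also higher in NZB. *Ifi202b* (a DNA-binding protein of the interferon-inducible cluster of chromosome 1) had 0 UMIs in the 3 NZW mice, and NZB was at least 18.8-fold and NZBWF1 at least 14.2-fold higher against a floor of 3 UMIs over the strain. The single gene that was lower was *Ifitm2*. *Ifitm* genes resemble each other in sequence, and their sum was 2571 ± 405 CPM in NZB, 1746 ± 22.3 in NZW, and 1643 ± 177 in NZBWF1. Calls of *Psmb8* and *Slfn1* were lost under 7 and 6 of 20 alternatives and that of *Gbp7* under 6 of 18. Genes called higher in NZB numbered 6 without NZB replicate 2 and 6 without NZW replicate 3.

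Among receptors and surface proteins, 3 of 26 were higher and 5 lower in NZB than in NZW, against 3.68% higher and 3.1% lower of all genes. *Ly6g* had 832, 852, and 718 in NZB, 431, 413, and 384 in NZW, and 505, 501, and 605 in NZBWF1. No 2 strains overlapped, and NZB was 2.02-fold higher than NZW (1.02 ± 0.12, adjusted p = 1.09e-07). *Selplg* (the P-selectin ligand, 0.84 ± 0.17) and *Csf2rb* (the shared beta chain of cytokine receptors, 0.56 ± 0.16) were higher as well. *Fcgr2b* (the inhibitory Fc receptor, -1.18 ± 0.19), *Cxcr4* (the marrow retention receptor, -0.55 ± 0.15), *Cd52* (-0.48 ± 0.11), *Il3ra* (-1.38 ± 0.32), and *Ly6c2* were lower. The calls of *Csf2rb* and *Cxcr4* were each lost under 8 of 20 alternatives, that of *Selplg* after subtraction of free RNA, and that of *Il3ra* with DESeq2.

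*Ly6c2* (the Ly-6C antigen) had 0.970, 8.24, and 6.24 CPM in NZB, 566, 525, and 511 in NZW, and 227, 294, and 268 in NZBWF1. It is one of 13 listed here from the genes that the study itself singled out in these mice, and of these 7 were higher in NZB, 5 lower, and 1 not called, so their calls are not independent of that choice. *Htatip2* and *BC023719* had 0 UMIs in all NZW mice, and NZB was at least 48.0-fold and 45.2-fold higher against the same floor. *Ftl1* (ferritin light chain) had 1892, 1438, and 1376 in NZB and 37.3, 36.0, and 43.4 in NZW, and its processed copy *Ftl1-ps1* had 7.76, 5.49, and 6.24 in NZB and 1188, 999.2, and 1023 in NZW. The copies are nearly identical, and their sum was 1575 ± 283, 1109 ± 102, and 1298 ± 311 CPM in NZB, NZW, and NZBWF1. For *Tpm3* and its copy *Tpm3-rs7*, which by itself had 170 ± 7.32 and 8.57 ± 3.73, the sums were 415 ± 29.2, 373 ± 36.3, and 379 ± 32.8. *Gm42031* and *AC139671.1*, which are known by identifiers alone, differed in opposite directions (6.69 ± 0.26 and -8.21 ± 0.37).

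Of the 10 genes outside the lists that were named for small p values, 8 lie on chromosome 7. That chromosome holds 578 of the 7657 genes tested and 56 of the 519 called between NZB and NZW. Genes of the lists that met the same rule are not in this count. Of the tested genes of chromosome 7, 9.69% were called, against 6.78% over all genes and 42 of 372 (11.3%) on chromosome 6. *Siglece* (an inhibitory sialic acid receptor, chr7:43651070-43660161) had 55.3, 72.5, and 74.2 in NZB, 5.74, 5.996, and 7.43 in NZW, and 29.7, 40.3, and 35.4 in NZBWF1, without overlap and with NZB 10.9-fold above NZW. The neighbouring *Cd33* (chr7:43524216-43544428), another sialic acid receptor, had 53.6 ± 6.09, 19.5 ± 4.10, and 52.2 ± 3.62 CPM, so that the hybrid lay at the level of NZB. *Napsa* (an aspartic protease), *Lmo1* (a LIM-domain transcription cofactor), *Pirb* (an inhibitory receptor for MHC class I), and *Mcee* were higher in NZB by 1.91 ± 0.13, 1.88 ± 0.12, 1.46 ± 0.12, and 2.43 ± 0.19, and *Hcst* (the DAP10 adaptor) and *Svip* lower by -1.43 ± 0.13 and -1.48 ± 0.14. *Pigp* of chromosome 16 was higher by 1.60 ± 0.16.

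*Cd3d*, which encodes a T-cell receptor subunit, had 1.94, 5.88, and 6.86 CPM in NZB, 67.8, 67.1, and 65.7 in NZW, and 27.6, 32.8, and 34.4 in NZBWF1. No 2 strains overlapped, and the 6 other T and NK cell markers summed to 24.3, 10.2, and 24.3 in NZB, 2.30, 19.6, and 0.571 in NZW, and 1.06, 13.6, and 44.6 in NZBWF1. In the remaining lists, transcription factors of granulocyte development had 1 higher (*Cebpb*, 0.43 ± 0.11) and 1 lower (*Runx1*, -0.57 ± 0.18) of 15, calls lost under 4 and 11 of 20 alternatives (adjusted p up to 0.291 and 0.219). Of 13 apoptosis regulators 1 was higher (*Bcl2a1b*, also named by the study, 1.997 ± 0.399), and of the 7 subunits of the phagocyte NADPH oxidase none was called, where 6.78% of all genes were called in either direction. Of the B-cell markers 2 of 3 tested (*Cd79b* and *Ebf1*) were lower in NZB, and of 8 erythroid and 6 monocyte markers 0 were called.

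The next question was how the hybrid stood against each parent. Against NZB, 194 genes (2.53%) were called, 84 (1.1%) higher and 110 (1.44%) lower in NZBWF1. Specific granule genes had 1 higher (*Itgb2l*) and 5 lower of 17, with a median of -0.16, the folding genes 0 higher and 3 lower of 18 (*Hsp90b1*, *Manf*, and *Pdia3*), with a median of -0.37, and the interferon-stimulated genes 0 higher and 5 lower of 40. The median over all genes was 0.01. *Ly6g* was lower by -0.70 ± 0.12, *Fcgr3* (an activating Fc receptor) by -0.68 ± 0.14, and *Serpinb1a* (an inhibitor of granule proteases) by -0.59 ± 0.13. *Cxcr4* was higher by 0.65 ± 0.15 and *Kit* by 1.19 ± 0.30. Of 3 B-cell markers tested, 2 (*Cd79b* and *Ebf1*) were also higher, with a median of 3.16 over the 3. The part of RNA from B-lineage cells in the other calls was not tested. In the specific granule list *Anxa1* and *Ceacam10* were lost without NZB replicate 2, and 3 genes were then lower. The 3 calls of the folding list were all lost without NZB replicate 2 and again without NZBWF1 replicate 2, and over the alternatives 0 to 6 of its genes were lower. In the interferon-stimulated list 2 to 5 were lower over the alternatives, with *Apobec3* lost under 13 of 20, *Plscr1* under 9, and *Ly6e* under 5, and all 3 were lost without NZBWF1 replicate 2. *Cxcr4* was lost under 5 of 20, *Kit* under 7 of 19, *Fcgr3* without NZB replicate 2 and after subtraction of free RNA, and *Serpinb1a* after that subtraction.

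Against NZW, 74 genes (0.966%) were called, 41 (0.535%) higher and 33 (0.431%) lower in NZBWF1. No folding gene and no primary granule gene was called, with medians of 0.21 and 0.60. The calls within the interferon-stimulated list were *Apobec3* (1.21 ± 0.22), *Ly6e* (1.82 ± 0.21), and *Ifi202b* upward and *Ifitm2* (-0.79 ± 0.12) downward. In the other lists *Pcna* (0.96 ± 0.19), *Cxcr2*, and *Ftl1* were called upward, and *Itgb2l*, *Cdkn2c*, *Ly6c2* (-1.09 ± 0.14), *Cd52* (-0.44 ± 0.11), *Ftl1-ps1*, and 3 histone genes downward, with *Cd52* lost under 8 of 20 alternatives. *Apobec3*, *Ifi202b*, *Ly6c2*, and *Ftl1-ps1* were not called after subtraction of free RNA, *Hist1h4i* was not called after it or with DESeq2, and *Hist1h4d* was not called without NZBWF1 replicate 2. Of the same 13 genes taken from the study, some of which are in these lists, 7 were higher and 4 lower. *Pcna* was no longer called without NZW replicate 1 or without NZBWF1 replicate 2, with adjusted p up to 0.113 over its alternatives.

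Of the 519 genes called between the parents, the hybrid's mean lay between them for 478, above both for 32, and below both for 9. These genes were chosen for a gap between the parents, which by itself makes a mean between them likely. The share over all genes was not computed. Against the mean of the parents on the log scale, 19 genes (0.248%) were called, 18 (0.235%) higher and 1 (0.0131%) lower. Of the 18, 16 lay between the parents, and 14 were within 1.5-fold of the plain average of the parental levels, since that average lies above the log mean where parents differ greatly. *Itgb2l* was one of them, at 143 ± 24.8 CPM against a plain average of 139, and its call was lost without NZB replicate 2, without NZBWF1 replicate 1, and with sums thinned to the smallest total (adjusted p up to 0.344). *Camkk2* (a calcium-dependent kinase, 27.5, 22.1, and 42.3 CPM in NZB, NZW, and NZBWF1) and *Rasl11b* (a small GTPase, 2.74, 18.1, and 18.3) lay above both parents, and *C130026I21Rik* (29.2, 6.21, and 5.06) below both. Their calls were lost under 9 of 19, 9 of 18, and 4 of 18 alternatives. DESeq2 called 5 genes higher and 14 lower in this comparison.

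Last, the strain difference in members was compared with that in the non-dividing cells of the same mice, in a fit with mouse as a block over 8313 genes. It differed for 8 genes (0.0962%), 3 (0.0361%) with a larger NZB over NZW value in members and 5 (0.0601%) with a smaller one. *Ifitm2* (another virus-restricting membrane protein) changed direction. In members it had 421, 503, and 382 CPM in NZB and 780, 690, and 709 in NZW, and in non-dividing cells 1071, 1099, and 829 in NZB and 355, 435, and 341 in NZW. NZB and NZW did not overlap at either stage, with NZB lower in members and higher in non-dividing cells, and the difference between stages was -2.31 ± 0.14 on the log2 scale (adjusted p = 1.30e-11). NZBWF1 had 423, 440, and 460 in members and 377, 462, and 396 in non-dividing cells.

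*Cmc2* (a mitochondrial assembly factor of cytochrome c oxidase) had 120, 123, and 127 in NZB members and 104, 82.3, and 94.8 in NZW members. In non-dividing cells it had 73.2, 86.4, and 82.4 in NZB and 8.06, 13.02, and 14.8 in NZW. NZB was higher at both stages, by less in members (-2.55 ± 0.21, adjusted p = 9.35e-09). *Cd52* (a lipid-anchored surface glycoprotein) was lower in NZB members, at 1726 ± 162 against 2494 ± 69.6 CPM, and 3564 ± 292 against 3740 ± 125 in non-dividing cells (-0.62 ± 0.11, adjusted p = 0.0143), and this call was lost under 8 of 17 alternatives (adjusted p up to 0.531), 6 of them fits that left out 1 mouse.

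**Figure D5:**
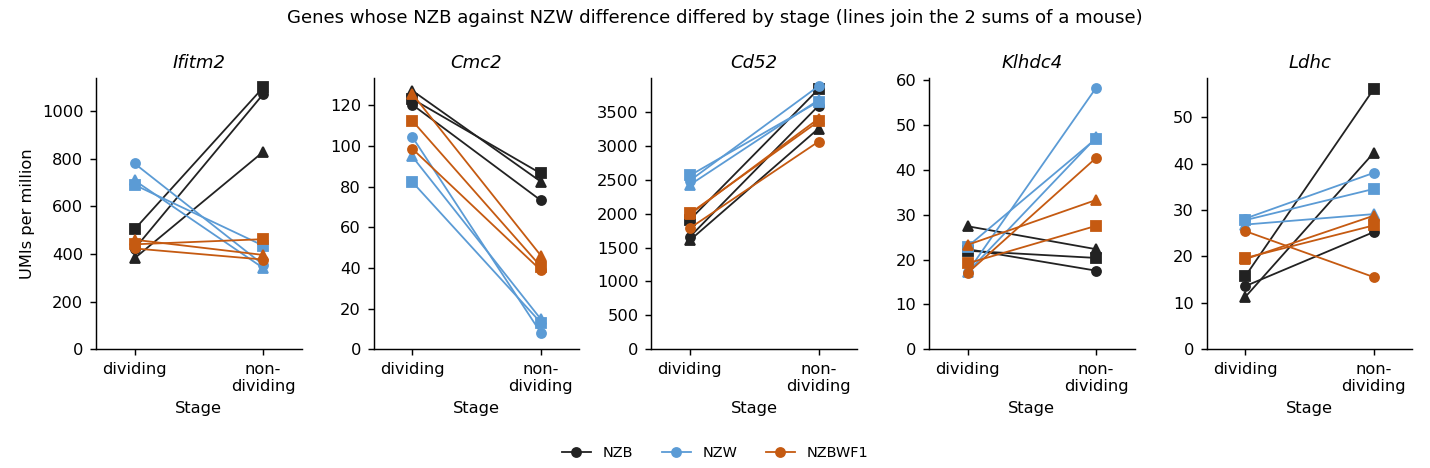
Levels of 5 genes in CPM in dividing neutrophil precursors and in non-dividing cells, with a line joining both sums of each mouse (replicate 1 circle, 2 square, 3 triangle). *Ifitm2* is lower in NZB than in NZW among dividing cells and higher among non-dividing cells, and *Cmc2* falls further in NZW than in NZB.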

How the data were processed

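Femur marrow of 9 mice was sequenced with the 10x 3' v3.1 kit, which captures poly(A) RNA, and the authors deposited whole UMI counts per gene and barcode for 31053 genes, made with Cell Ranger 3.1.0 and bcl2fastq 2.20 on mm10 per the submitters' processing notes. The libraries were merged by the authors. Whether depth was equalized in that step could not be told from the labels, and the number after a barcode was read as the line of the list of libraries, as Cell Ranger numbers them. Kept barcodes had 8106539 to 18663189 UMIs per mouse. Strain labels and replicate numbers were taken from the labels, where each sample is 1 mouse.

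Members were chosen by the stated rule. The members and the gene lists were chosen with earlier results of these data known. Member counts were summed per mouse and tested with edgeR 4.0.16 (quasi-likelihood, robust, TMM factors, filterByExpr) in R 4.3.3, on all 9 mice with strain as the term, and the stage comparison had mouse as a block. The procedure was tested on simulated data for NZB against NZW, with 200 of 7449 to 7489 genes changed, and it recovered 47 at 1.5-fold, 151 at 2-fold, and 190 at 4-fold. Shares used exact permutation tests of the spread between strains, which has no direction, over 280 arrangements, and thinning took fixed seeds. Intervals and floors cover counting error only. Free RNA was estimated from barcodes under 100 UMIs by their globin counts, with all globin of members taken as free RNA (0.298% to 23.0% of member UMIs). Doublets were scored per mouse by the Scrublet procedure, removing 0.8% per 1000 barcodes in an alternative and none in the main values. Alternatives changed scaling, low-count filter, tool (DESeq2 1.42.0), rule thresholds, doublets, free RNA, depth, and left out each mouse. Genes were named as rule or label genes, as up to 4 called members of smallest p and the most abundant member of each list, as the 10 called genes of smallest p with at least 50 CPM and no overlap of mice in each comparison, as genes the study named, and as the 5 stage-dependent genes of smallest p. *Pdia6*, *Calr*, *Sdf2l1*, *Prtn3*, and the other called genes listed beyond these were added after their values were seen. Gene coordinates are from GENCODE vM21, which held 31011 of the 31053 identifiers (99.9%), and promoters from RefSeq (GRCm38.p6). Apart from these promoter windows, no genome sequence was used.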

Additional observations from a re-analysis of the deposited data

Results flagged for a closer look

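The NZB over NZW difference was not the same in dividing neutrophil precursors and in non-dividing cells of the same mice for 8 genes, by the test of the difference itself (edgeR, mouse as a block). For *Ifitm2* (-2.31), *Cmc2* (-2.55), and *Cd52* (-0.62) the values per mouse are given above. For *Ldhc* (a lactate dehydrogenase subunit) the difference between stages was -1.53, with 13.5 ± 2.23 CPM in NZB members and 27.6 ± 0.669 in NZW members against 41.2 ± 15.5 and 33.9 ± 4.48 in non-dividing cells. For *Klhdc4* it was 1.49, with 23.9 ± 3.06 and 19.1 ± 3.30 in members against 20.1 ± 2.41 and 50.9 ± 6.48. For *Gde1* (a glycerophosphodiesterase) it was 1.27, with 35.7 ± 3.43 and 40.8 ± 3.79 in members against 17.7 ± 5.59 and 55.1 ± 1.995. For *Ly6e* it was 0.95, with 357 ± 93.7 and 53.9 ± 15.3 in members against 154 ± 50.7 and 51.8 ± 26.6. For *Trappc5* (a vesicle tethering subunit) it was -0.95, with 55.3 ± 7.84 and 64.8 ± 3.6 in members against 64.5 ± 0.603 and 43.5 ± 5.91. *Ifitm2* and *Cmc2* were called under all 17 alternatives run. The call was lost under 3 of them for *Klhdc4*, 6 for *Ly6e*, 7 for *Ldhc*, 8 for *Cd52*, 8 for *Gde1*, and 11 for *Trappc5*, of which 3, 4, 5, 6, 6, and 8 were fits that left out 1 mouse. The cause was not tested for any of the 8.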

How the results depend on the processing

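The 4 shares and the 5 counts of called genes were recomputed under each alternative. Shares of kept cells, shares of *Camp* and *Ngp* cells, and shares with *Ltf* kept their side of the threshold, except that the share of kept cells passed without NZB replicate 1. Leaving out 1 mouse moved the adjusted p of the exact permutation tests between 0.0143 and 0.821 for the share of kept cells and between 0.0143 and 0.157 for the share with primary granule UMIs. That last share was also not called at 2000 UMIs and 1000 genes (adjusted p = 0.114), with doublets left out (0.0571), unthinned (0.257), or at 2000 UMIs per member (0.371), and the cause was not tested.

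Leaving out 1 mouse gave 315 to 667 genes between NZB and NZW, 94 to 230 for NZBWF1 against NZB, 51 to 85 against NZW, 12 to 25 against the mean of the parents, and 3 to 12 for the stage comparison. The lowest counts of the first, the second, and the fourth of these came without NZB replicate 2, and NZBWF1 against NZB gave 113 without NZBWF1 replicate 2. The stage comparison gave 5 without NZB replicate 1, 3 without NZB replicate 3, NZW replicate 2, or NZBWF1 replicate 3, and 4 without NZW replicate 3. Every gene with at least 1 count, which tests more genes, gave 297 for NZBWF1 against NZB, 60 against the mean of the parents, and 20 by stage. At least 10 counts in every mouse, which tests fewer, gave 103, 2, and, for NZBWF1 against NZW, 48. DESeq2 gave 302 between NZB and NZW and 120 for NZBWF1 against NZB. Subtraction of free RNA gave 292, 67, 44, and 12 for the 4 comparisons of strains, and sums thinned to the smallest total gave 306, 115, and, against the mean of the parents, 8. At least 3 *Mki67* and *Top2a* UMIs gave 12 against the mean of the parents and 3 by stage, and without the mouse block 3 genes were called by stage.

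Over all genes, correlations between the deviations of same-numbered mice were -0.111 to 0.0976, positive in 8 of 9 pairs but over 0.1 in none, and 7 of 9 mice correlated best with a mouse of their own number, against -0.105 to 0.083 and 7 of 18 positive for other pairs. The labels give no meaning to the numbers, which were therefore not taken as pairs, although the dividing share and the UMIs per member did follow them. With the replicate block 538, 222, 79, and 23 genes were called in the 4 comparisons of strains. The primary granule share within replicate numbers had an adjusted p = 0.111 by exact permutation. Its unadjusted p was 0.0278, the smallest possible in that test. For 92 named genes, 137 values were called, and of their 2659 refits 2423 kept the call, 236 lost it, and 0 changed direction, with 85 values called in every refit. Of 626 refits of 32 values not called, 34 were called and 22 had the other sign without a call. The stage comparison was not run with DESeq2, free RNA subtracted, or thinned sums.

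With 3 mice a strain, 1.5-fold changes are mostly missed, as 47 of 200 simulated ones were recovered for NZB against NZW. The alternative that leaves out members with at least 2 erythroid UMIs and the block for the shares were chosen after seeing the data. Strain cannot be told apart from anything else that differed between the 3 groups of mice.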

Other observations

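The share of tested genes called between NZB and NZW in dividing neutrophil precursors differed by chromosome. Among chromosomes with at least 190 tested genes it was highest on chromosome 6 (42 of 372, 11.3%), chromosome 7 (56 of 578, 9.69%), and chromosome 14 (26 of 269, 9.67%), and lowest on the X chromosome (4 of 219, 1.83%) and chromosome 19 (8 of 280, 2.86%), with 6.78% over all genes. No test was made between chromosomes.

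Single mice held high levels of genes of other lineages. *Jchain* (the joining chain of immunoglobulins) had 138 CPM in members of NZB replicate 2 and at most 12.1 in the others. *Prss34* (a basophil and mast cell protease) had 69.1 in NZW replicate 3 and at most 1.06 elsewhere. *Hbb-bs* (beta globin) had 1562 in NZW replicate 3 and 11.7 in NZBWF1 replicate 1. *Hmox1* (heme oxygenase 1, which degrades heme) had 96.5 in NZBWF1 replicate 3 and 30.6 to 53.4 in the other 8 mice, and it was not called in any comparison of strains.

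Barcodes that met the rule except for a *Cd79a* or *Csf1r* UMI numbered 344. Their *Ltf* level was 5572 CPM, and 49.1% of them were marked as doublets against 7.46% of members.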
